A study of Mus musculus with 6 samples.

Results

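The 10 genes described here mark T cells and natural killer (NK) cells: Cd3d, Cd3e, Cd3g, Il7r, Thy1, Lck, Cd4, Klrk1, Eomes and Gzmb. They were taken by symbol from the deposited table of 27634 genes, and all 10 were found. The table holds 6 RNA-seq libraries from what the labels call cancer-associated dendritic cells, taken from C57BL/6 mice bearing tumours of ID8-Defb29/Vegf-a, an ovarian cancer line of the mouse made to express a defensin and a vascular growth factor. The mice had borne the tumours for 32 to 38 days and were given 100 µg of siRNA bound to polyethylenimine, a polymer labelled with rhodamine. In the high experiment, labelled as strong downregulation of Satb1, 2 libraries came from mice given Satb1 siRNA and 2 from mice given non-targeting (NT) siRNA. In the low experiment, labelled as weak downregulation, each siRNA has 1 library. The labels do not say how the cells were sorted or whether different mice gave the libraries, so p-values measure only the spread between these libraries.

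T cells recognise antigen through a receptor whose variable chains are carried by the invariant CD3 subunits, and the kinase Lck starts the signal inside the cell. The coreceptor CD4 binds class II antigen complexes, and the interleukin 7 receptor keeps resting T cells alive. NK cells carry no such antigen receptor and use activating receptors such as NKG2D, the product of Klrk1, to release granzymes into a target cell. Satb1 is a chromatin organiser with a known role in developing T cells. Several of these genes are also read by cells other than T and NK cells, such as Cd4 in some dendritic cells and Thy1 in fibroblasts.

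Total counts were 24553454 to 71272720 per library. The repeats of each high group differed by little more than sampling noise, with a chi-square per gene of 1.37 for Satb1 siRNA and 1.202 for NT siRNA where noise alone gives about 1, and none of the 10 genes differed between repeats. Such repeats amount to 1 sample per group, but the edgeR tests below take their spread from both libraries of each high group, so their p-values compare sequenced libraries, not conditions over independent samples. Satb1 had 184 and 200 counts in the high Satb1 siRNA libraries, against 1233 and 1193 in the high NT libraries. It had 165 counts and 1.04 FPKM in the low Satb1 siRNA library, against 170 counts and 0.98 FPKM in the low NT library. The low ratio after TMM scaling was 0.835 with an exact 95% counting interval of 0.670 to 1.04, so the weak downregulation on the label was not detectable in the low libraries. The dendritic cell label was checked against 10 classical dendritic cell markers, all of which had counts in every library. Their summed level was 34.6 and 32.2 CPM (counts scaled to the library total) in the high Satb1 siRNA libraries, 47.1 and 49.3 CPM in the high NT libraries, 690.5 CPM in the low Satb1 siRNA library and 323.5 CPM in the low NT library. In the high experiment 5 of the 10 were called higher and 4 lower with Satb1 siRNA, against 32.8% and 33.2% of all genes tested. The lower high sums with Satb1 siRNA came with Itgax, which had the largest drop (323 and 276 counts with Satb1 siRNA, 1507 and 1573 with NT siRNA). Of the other markers Flt3, Zbtb46, Clec9a, Cd209a and Dpp4 were called higher. Xcr1, Batf3 and Ccr7 were called lower, and Itgae was not called. The sum over 11 macrophage markers was larger in every library, at 2931 to 4433 CPM. The gap between these sums was wider in the high experiment than in the low one. The 2 sums cover different genes, so they do not measure how much of each cell type was present. In bulk RNA, fewer cells of a type and less RNA per cell cannot be told apart.

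The promoters below are shown because Cd3d, Cd3e and Cd3g lie side by side on chromosome 9 yet differed widely in level, Il7r fell within the high experiment, and Klrk1 had very different levels in the 2 experiments. The sequences are RefSeq's for build GRCm38.p6, which is not the build named for these data (mm9). Each runs 5′ to 3′ from 250 bases before to 50 bases after the start of the gene, and capitals mark the ETS core AGGAAG, read on either strand.
Cd3d, chr9:44981536-44981835, plus strand: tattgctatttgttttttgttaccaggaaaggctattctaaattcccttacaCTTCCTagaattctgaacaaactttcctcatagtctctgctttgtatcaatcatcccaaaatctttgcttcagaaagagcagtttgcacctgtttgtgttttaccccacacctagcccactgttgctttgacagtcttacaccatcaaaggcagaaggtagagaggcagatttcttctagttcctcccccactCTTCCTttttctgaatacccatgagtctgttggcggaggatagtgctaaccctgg
Cd3e, chr9:45009562-45009861, minus strand: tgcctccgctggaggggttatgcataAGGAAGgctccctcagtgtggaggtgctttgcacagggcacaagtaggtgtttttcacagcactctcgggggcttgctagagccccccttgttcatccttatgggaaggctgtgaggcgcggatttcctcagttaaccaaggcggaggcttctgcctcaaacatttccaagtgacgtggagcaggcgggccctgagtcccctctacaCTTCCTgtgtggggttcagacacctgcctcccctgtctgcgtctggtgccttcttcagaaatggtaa
Cd3g, chr9:44980382-44980681, minus strand: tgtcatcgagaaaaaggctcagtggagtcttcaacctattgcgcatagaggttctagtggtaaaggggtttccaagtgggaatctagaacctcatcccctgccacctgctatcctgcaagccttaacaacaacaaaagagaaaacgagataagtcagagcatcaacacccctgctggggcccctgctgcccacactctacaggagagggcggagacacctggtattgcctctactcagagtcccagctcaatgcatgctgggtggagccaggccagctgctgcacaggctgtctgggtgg
Il7r, chr15:9529827-9530126, minus strand: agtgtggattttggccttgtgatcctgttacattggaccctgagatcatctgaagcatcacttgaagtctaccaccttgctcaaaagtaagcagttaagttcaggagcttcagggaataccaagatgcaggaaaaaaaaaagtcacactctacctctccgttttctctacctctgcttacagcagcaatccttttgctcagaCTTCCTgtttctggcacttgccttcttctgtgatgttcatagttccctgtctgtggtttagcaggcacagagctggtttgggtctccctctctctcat
Klrk1, chr6:129623815-129624114, minus strand: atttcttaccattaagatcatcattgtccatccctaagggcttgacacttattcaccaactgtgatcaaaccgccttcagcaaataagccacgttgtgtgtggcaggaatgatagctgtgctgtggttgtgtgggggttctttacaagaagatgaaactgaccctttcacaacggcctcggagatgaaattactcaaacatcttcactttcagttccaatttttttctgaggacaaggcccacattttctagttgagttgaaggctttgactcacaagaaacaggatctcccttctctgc
RefSeq's table held a promoter for 8 of the 10 genes, with Cd4 and Thy1 not matched. The ETS core was found 2 times in the Cd3d window, 2 times in the Cd3e window and 1 time in the Il7r window, and it occurs in 35.4% of the 32851 promoters of the same length. It was not among the letters of the Cd3g and Klrk1 windows. The Cd3g window held 1 copy of AGATAA (11.2% of all promoters) and 4 copies of CANNTG (72.3%), while the Cd3d window held none of the first and 1 of the second. TGTGGT was present 1 time each in the Il7r and Klrk1 windows (16.8% of all promoters), and TATAAA in none of these 5 (13.6%). All motifs were read on both strands. Bases A and T made up 57.7% of the Cd3d window, 43.3% of the Cd3e window and 46.0% of the Cd3g window, against a median of 47.3% over all promoters.

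**Figure D1:**
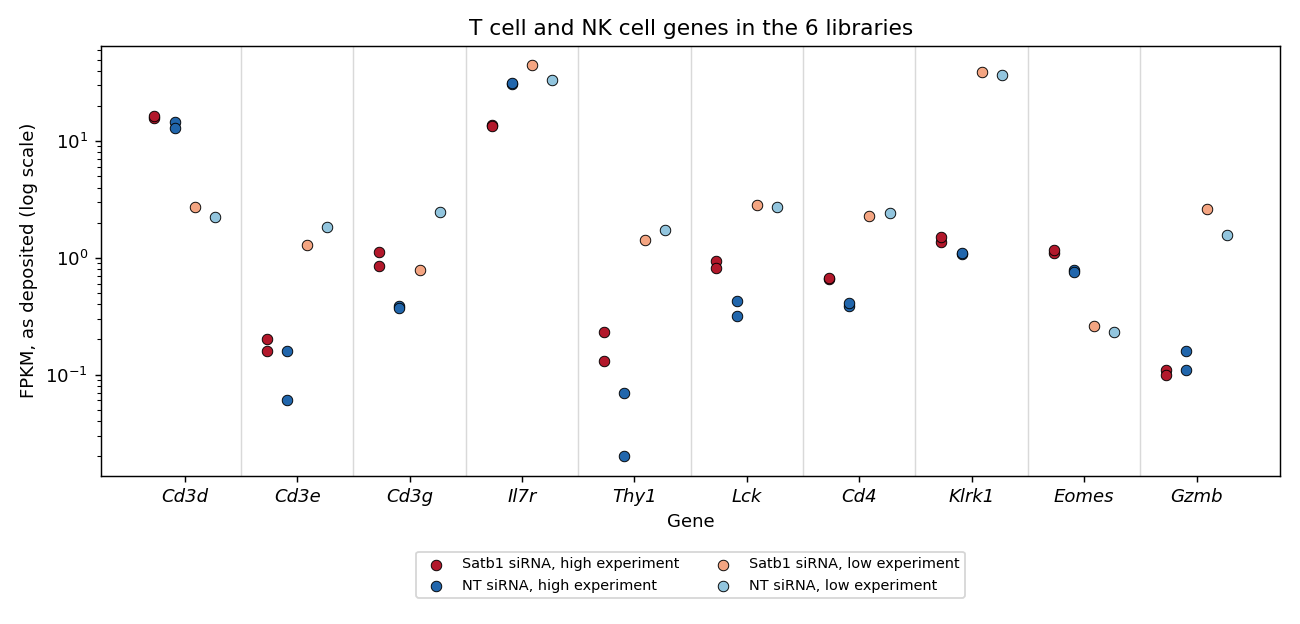
FPKM of each of the 10 genes (log axis) in the 6 libraries, 1 point per library, coloured by siRNA and experiment. Cd3d and Il7r lie above the other 8 genes in the 4 high libraries, whereas Klrk1 stands at 39.4 and 36.7 FPKM in the low libraries and at 1.5 FPKM or less in the high ones.

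Levels are given as the authors' FPKM (fragments scaled to gene length and library size), which allows genes of different length to be set side by side. Il7r and Cd3d led the high libraries, while Il7r and Klrk1 led the low ones. In the high Satb1 siRNA libraries the order by mean FPKM was Cd3d (16.1), Il7r (13.6), Klrk1 (1.44), Eomes (1.14), Cd3g (0.99), Lck (0.88), Cd4 (0.67), Cd3e (0.18), Thy1 (0.18) and Gzmb (0.11). Neighbours whose repeats overlapped there were Cd3g with Eomes, Cd3g with Lck, and Cd3e with Thy1. In the high NT libraries it was Il7r (31.0), Cd3d (13.9), Klrk1 (1.1), Eomes (0.77), Cd4 (0.40), Cd3g (0.38), Lck (0.38), Gzmb (0.14), Cd3e (0.11) and Thy1 (0.045). Repeats overlapped among Cd4, Cd3g and Lck, between Gzmb and Cd3e, and between Cd3e and Thy1. With 1 library each, the order in the low libraries has no replicate check. Cd3d and Il7r together made up most counts of the 10 genes in the high experiment, Cd3d 46.3% and 46.8% with Satb1 siRNA against 25.01% and 23.4% with NT siRNA, and Il7r 40.9% and 39.3% against 68.8% and 70.0%. Cd3d made up 1.39% in the low Satb1 siRNA library and 1.37% in the low NT library.

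Among the CD3 subunits, which are assembled together on T cells, Cd3d stood far above its neighbours in the high experiment. Cd3d had 15.7 and 16.5 FPKM (2407 and 2306 counts) in the high Satb1 siRNA libraries, against 14.7 and 13.1 FPKM (2469 and 2416 counts) in the high NT libraries. Both Satb1 siRNA libraries lay above both NT libraries. Relative to scaled library size Cd3d rose by 0.36 on the log2 scale (SE 0.032, from edgeR's quasi-likelihood fit, adjusted p = 1.12e-15).

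Cd3e had 0.16 and 0.20 FPKM (11 and 16 counts) in the high Satb1 siRNA libraries, against 0.06 and 0.16 FPKM (6 and 17 counts) in the high NT libraries. These groups overlapped. The log2 fold change of 0.64 (SE 0.43) was not called (edgeR adjusted p = 0.185). Without NT replicate 2 it was 1.52, and without NT replicate 1 it was 0.11. Cd3e needed the Satb1 siRNA libraries, where it was higher, to pass the filter on low counts. These fits are therefore no evidence of a rise.

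Cd3g had 1.13 and 0.85 FPKM (60 and 43 counts) in the high Satb1 siRNA libraries, against 0.39 and 0.37 FPKM (27 and 27 counts) in the high NT libraries. The groups did not overlap, and Cd3g rose by 1.34 on the log2 scale (SE 0.24, edgeR adjusted p = 1.71e-06). The FPKM of Cd3d was 98.3 and 82.7 times that of Cd3e in the high Satb1 siRNA libraries, against 244 and 81.8 times in the high NT libraries. Against Cd3g it was 13.9 and 19.4 times with Satb1 siRNA and 37.6 and 35.4 times with NT siRNA.

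In the low experiment the subunits lay close together. The low Satb1 siRNA library had 2.74 FPKM of Cd3d, 1.29 of Cd3e and 0.79 of Cd3g (90, 46 and 20 counts), and the low NT library 2.25, 1.83 and 2.45 FPKM (82, 72 and 68 counts). Cd3d was therefore 2.12 times Cd3e and 3.47 times Cd3g in the low Satb1 siRNA library, and 1.23 and 0.918 times in the low NT library. GENCODE M21, an annotation of another mouse build, has no gene overlapping Cd3d or Cd3g on either strand, and 2 genes overlapping Cd3e, of which 1 is antisense. The library kit keeps strand, but the labels do not say whether counting used it, so Cd3e reads could include reads of those genes.

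**Figure D2:**
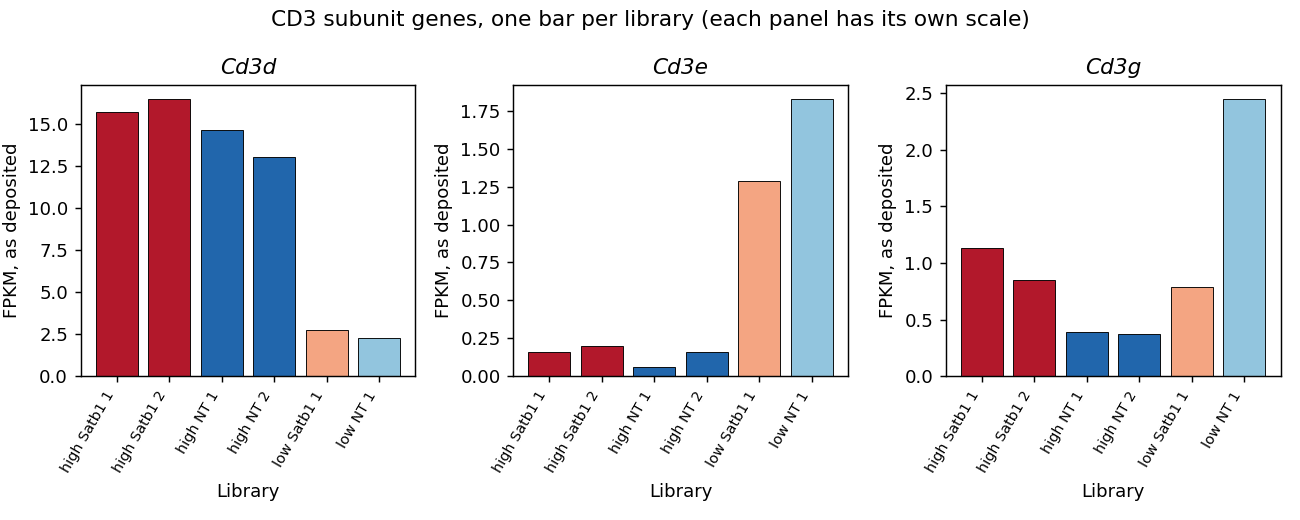
FPKM of Cd3d, Cd3e and Cd3g, 1 bar per library, each panel with its own linear scale from 0. Cd3d is at 13.1 FPKM or more in the 4 high libraries and at 2.74 or less in the low ones, while Cd3e is highest in the low libraries and Cd3g in the low NT library.

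Il7r, the alpha chain of the interleukin 7 receptor, was the only one of the 9 tested genes that fell in the high experiment. It had 13.7 and 13.5 FPKM (2126 and 1936 counts) in the high Satb1 siRNA libraries, against 30.7 and 31.3 FPKM (6790 and 7219 counts) in the high NT libraries. The repeats lay close together and the groups far apart, and Il7r fell by 1.38 on the log2 scale (SE 0.027, edgeR adjusted p = 4.64e-55). Summed over repeats, the ratio was 0.386 with an exact 95% counting interval of 0.372 to 0.399.

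In the low experiment Il7r had 44.5 FPKM (3437 counts) with Satb1 siRNA and 33.4 FPKM (2867 counts) with NT siRNA. Its ratio was 1.03 after TMM scaling (0.981 to 1.08), and 1.32 (1.26 to 1.39) with library size alone. This scaling choice moves the median of all genes in the low experiment from 0.00 to 0.23 on the log2 scale, and it bears on every low ratio below. The ratios of Il7r in the 2 experiments differed by -1.43 on the log2 scale (high minus low, SE 0.050, edgeR adjusted p = 1.42e-49). The spread behind that test comes from the high repeats alone, as the low groups have 1 library each, so it compares these libraries and does not show that the effect of the siRNA differs.

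Thy1 and Lck were scarce in the high experiment. Thy1, a surface glycoprotein of T cells that fibroblasts also carry, had 0.13 and 0.23 FPKM (12 and 20 counts) in the high Satb1 siRNA libraries, against 0.02 and 0.07 FPKM (2 and 9 counts) in the high NT libraries. The groups did not overlap, and the ratio of summed counts was 3.87 with a counting interval of 1.90 to 8.504. Thy1 passed the filter on low counts only through the Satb1 siRNA libraries, where it was higher, so its call as higher by edgeR is no evidence of a rise and no p is given for it.

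Lck had 0.93 and 0.82 FPKM (57 and 53 counts) in the high Satb1 siRNA libraries, against 0.43 and 0.32 FPKM (46 and 34 counts) in the high NT libraries. The groups did not overlap, and it rose by 0.87 on the log2 scale (SE 0.22, edgeR adjusted p = 3.78e-04). Cd4, the coreceptor gene, had 0.66 and 0.67 FPKM (138 and 120 counts) with Satb1 siRNA, against 0.39 and 0.41 FPKM (123 and 164 counts) with NT siRNA. Its FPKM did not overlap between the groups, but its log2 fold change of 0.26 (SE 0.13) was not called (edgeR adjusted p = 0.0818). The ratio of its summed counts was 1.195, a smaller gap than that in FPKM. Why the 2 measures differ for Cd4 was not tested. Cd4 was called with library size alone (0.31, edgeR adjusted p = 0.0343) and without NT replicate 2 (0.44, edgeR adjusted p = 0.0204).

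Levels of these 3 genes in the low libraries were higher than in the high ones. Thy1 had 1.41 FPKM (61 counts) with low Satb1 siRNA and 1.72 FPKM (82 counts) with low NT siRNA. Lck had 2.81 FPKM (131 counts) with low Satb1 siRNA and 2.70 FPKM (139 counts) with low NT siRNA. Cd4 stood at 2.30 FPKM (175 counts) with low Satb1 siRNA and 2.40 FPKM (174 counts) with low NT siRNA.

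Of the NK cell genes, Klrk1 and Eomes rose in the high experiment and Gzmb was too rare to be tested there. Klrk1, the NKG2D receptor gene, had 1.37 and 1.5 FPKM (190 and 203 counts) in the high Satb1 siRNA libraries, against 1.08 and 1.11 FPKM (200 and 222 counts) in the high NT libraries. The groups did not overlap and the log2 fold change was 0.31 (SE 0.11, edgeR adjusted p = 8.74e-03). Klrk1 was not called by DESeq2 (adjusted p = 0.142), nor by edgeR with NT replicate 1 left out (adjusted p = 0.0780) or Satb1 siRNA replicate 2 left out (edgeR adjusted p = 0.144).

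Eomes, a T-box factor of NK cells and memory T cells, had 1.1 and 1.17 FPKM (194 and 222 counts) with Satb1 siRNA, against 0.78 and 0.75 FPKM (195 and 197 counts) with NT siRNA. The groups did not overlap, and it rose by 0.50 on the log2 scale (SE 0.11, edgeR adjusted p = 4.91e-05). In GENCODE M21 an antisense gene overlaps Eomes, so its counts could hold reads of that gene. Gzmb, a granzyme that plasmacytoid dendritic cells and mast cells can also make, had 0.11 and 0.10 FPKM (8 and 7 counts) with Satb1 siRNA, against 0.16 and 0.11 FPKM (15 and 11 counts) with NT siRNA. It did not pass the filter. Without the filter its log2 fold change was -0.38 (SE 0.48, edgeR adjusted p = 0.501), and its summed ratio of 0.767 had a counting interval of 0.378 to 1.503, so no difference was detectable at this depth. Reads of Gzmb may also be split with related granzyme genes.

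**Figure D3:**
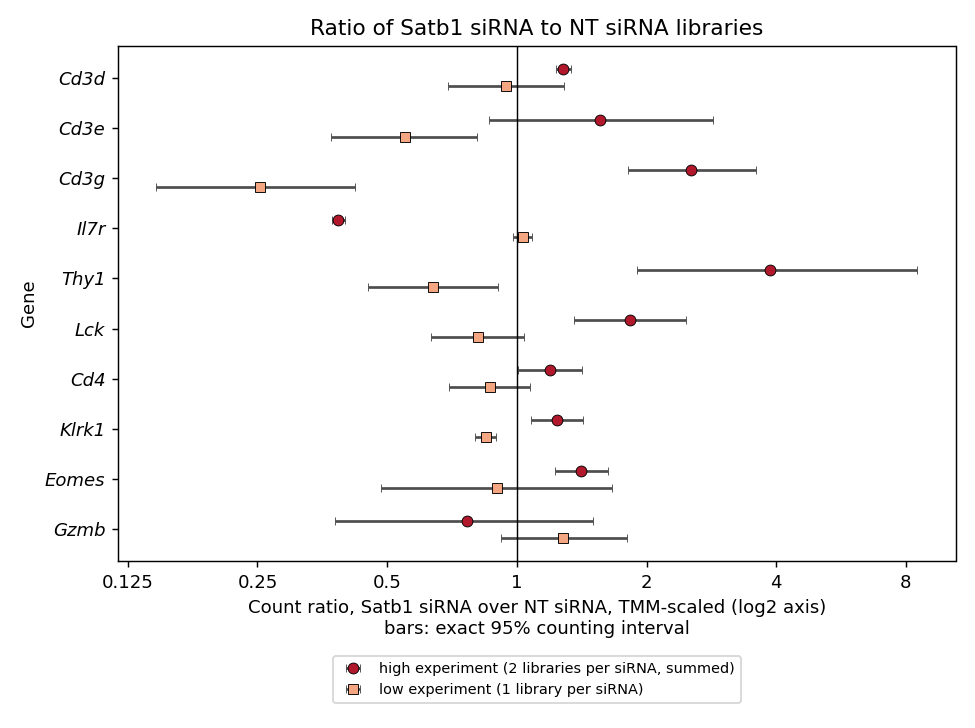
Ratio of Satb1 siRNA to NT siRNA counts after TMM scaling (log2 axis) for each gene, with exact 95% counting intervals, circles for the high experiment with repeats summed and squares for the low experiment. Il7r lies at 0.386 in the high and 1.03 in the low experiment, while Cd3g lies at 2.54 in the high and 0.253 in the low experiment.

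Of the 9 genes tested in the high experiment, 6 were called higher, 1 lower and 2 not called. Among all 20242 genes tested, 66.0% were called, 32.8% as higher and 33.2% as lower. The 6 include Thy1, and Cd3e also needed the Satb1 siRNA libraries to pass the filter. Of the 7 genes past the filter's cutoff in every high library, 5 rose, 1 fell and 1 was not called. Scaled counts did not overlap between the high groups for 82.2% of all genes tested, which is the background for the non-overlap given above. In a fit on the summed repeats of both experiments, with a term for experiment, edgeR called none of the 10 genes and 6 genes in all, with 1633 genes at an unadjusted p under 0.05.

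In the low experiment 4 of the 10 genes had a counting interval that excluded a ratio of 1, all with lower values under Satb1 siRNA after TMM scaling, against 48.3% of all 19602 genes with a count there (27.3% lower, 20.9% higher). With library size alone 4 intervals also excluded 1, but 3 of them with higher values (Il7r, Klrk1 and Gzmb) and 1 with a lower value (Cd3g). Cd3g was thus the only one of the 10 to be lower under both scalings by its interval. The intervals cover counting error only, and there is no replicate check. The ratio was 0.253 for Cd3g (0.146 to 0.422), 0.550 for Cd3e (0.371 to 0.807), 0.640 for Thy1 (0.452 to 0.902) and 0.846 for Klrk1 (0.799 to 0.896). With library size alone it was 0.324 for Cd3g (0.186 to 0.540), 0.703 for Cd3e (0.475 to 1.03), 0.819 for Thy1 (0.578 to 1.16) and, with the direction turned, 1.08 for Klrk1 (1.02 to 1.15). Of the other 6, Gzmb had 2.60 FPKM (91 counts) with Satb1 siRNA and 1.57 FPKM (61 counts) with NT siRNA, a ratio of 1.28 (0.918 to 1.81) that became 1.64 (1.17 to 2.31) with library size alone. Eomes had 0.26 FPKM (24 counts) with Satb1 siRNA and 0.23 FPKM (23 counts) with NT siRNA, with a ratio of 0.898 (0.485 to 1.66). Lck, Cd4 and Cd3d had ratios of 0.811, 0.865 and 0.944 with intervals that included 1, and these turned to 1.04, 1.11 and 1.21 with library size alone.

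Differences between the 2 experiments in the ratio of Satb1 siRNA to NT siRNA libraries were called for 6 of the 10 genes, against 39.7% of 20971 genes tested, with the limit given for Il7r. Positive values mean a higher ratio in the high experiment. They were 3.31 for Cd3g (SE 0.42, edgeR adjusted p = 2.46e-11), 1.16 for Lck (SE 0.28, edgeR adjusted p = 3.44e-04) and 0.54 for Klrk1 (SE 0.11, edgeR adjusted p = 1.15e-05), beside the negative value of Il7r given above. For Thy1 and Cd3e the differences were 2.56 (SE 0.54) and 1.49 (SE 0.51). No edgeR p is printed for these genes. Both needed the Satb1 siRNA libraries, where they were higher, to pass the filter of the high comparison. The difference between experiments has its own filter over 6 libraries, which both also passed in the low libraries, so that limit is not one of this test. The high ratio inside the difference still rests on few counts (6 to 17 per library for Cd3e, 2 to 20 for Thy1). In DESeq2 3 of the 10 were called, and Cd3e (adjusted p = 0.388), Thy1 (adjusted p = 0.0966) and Lck (adjusted p = 0.194) were not. The Klrk1 call ended with library size alone (0.25, edgeR adjusted p = 0.0518). Cd3e was not called when NT replicate 1 was left out (0.97), nor without Satb1 siRNA replicate 2 (1.17). Cd3d, Cd4, Eomes and Gzmb were not called (edgeR adjusted p = 0.110, 0.0695, 0.249 and 0.271). Cd4 was called without NT replicate 2 (0.64, edgeR adjusted p = 0.0191) and without Satb1 siRNA replicate 2 (0.53, edgeR adjusted p = 0.0440).

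The control libraries of the experiments differed widely in these genes. With 1 low NT library no test was made, and the experiment and its library preparation cannot be told apart. Klrk1 had 36.7 FPKM (2426 counts) in the low NT library, against 1.08 and 1.11 FPKM (200 and 222 counts) in the high NT libraries, a TMM-scaled ratio of 45.95 (41.4 to 51.1). Thy1 was 59.6 times as high (31.6 to 124), Cd3e 25.02 times (15.5 to 41.9), Gzmb 18.8 times (11.7 to 30.9), Lck 13.9 times (10.5 to 18.5), Cd3g 10.1 times (6.94 to 14.7) and Cd4 4.85 times (3.99 to 5.87). Cd3d and Eomes went the other way, with ratios of 0.134 (0.107 to 0.167) and 0.469 (0.294 to 0.714). Il7r differed least, at 1.64 (1.57 to 1.70), and had almost the same level with library size alone (0.074 on the log2 scale).

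In all, 7 of the 10 genes were at least 2-fold higher and 2 at least 2-fold lower in the low NT library. Over 20971 genes 57.8% differed at least 2-fold, as 19.8% were at least 2-fold higher and 38.1% at least 2-fold lower. With library size alone the same split was 7 and 2, while the median of all genes moved from -0.43 to -0.997 on the log2 scale. The gap between the NT libraries of the experiments was thus opposite for Cd3d to that of Cd3e and Cd3g. Between the Satb1 siRNA libraries no TMM-scaled ratio was taken. Cd3g had 0.79 FPKM (20 counts) in the low library, against 1.13 and 0.85 FPKM (60 and 43 counts) in the high ones. That gap is small, rests on few counts and depends on the scaling, so no direction is read from it.

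**Figure D4:**
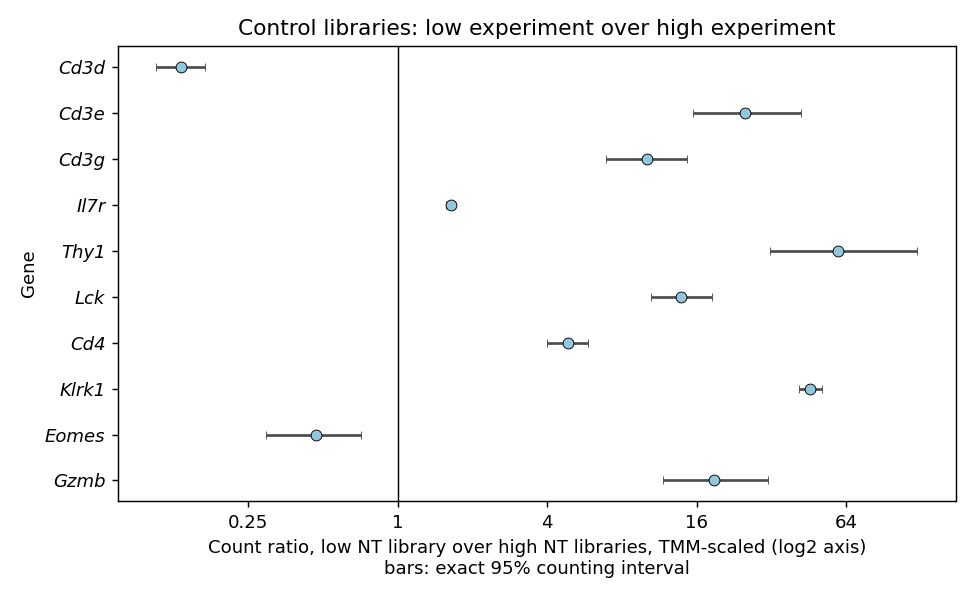
Ratio of the low NT library to the summed high NT libraries after TMM scaling (log2 axis), with exact 95% counting intervals. Klrk1 and Thy1 lie at 45.95 and 59.6, and Cd3d and Eomes lie below 1 at 0.134 and 0.469.

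Genes that act beside the T cell receptor were mixed in the high experiment. For this and the following lists, the shares over all genes tested there were 32.8% called higher and 33.2% called lower. Among all genes with a count in the low experiment, 20.9% had an interval above a ratio of 1 and 27.3% below it. Of 27 genes listed for the receptor and costimulation, 23 were in the table and tested, 10 rose, 4 fell and 9 were not called, with a median of 0.36 on the log2 scale. Cd8b1, the CD8 beta chain, rose by 1.02 (38 and 40 counts with Satb1 siRNA, 29 and 22 with NT siRNA, edgeR adjusted p = 5.46e-04). The costimulatory receptor gene Icos rose by 0.63 (36 and 34 counts with Satb1 siRNA, 30 and 30 with NT siRNA, edgeR adjusted p = 0.0274). The 3 genes of the list with most counts are shared by many white blood cells: the adaptor gene Fyb rose by 0.060, the exchange factor gene Vav1 fell by 0.30, and Ptprc, which encodes CD45, rose by 0.020. Cd247, the zeta chain that joins CD3, had 7.24 and 7.60 FPKM with Satb1 siRNA, against 5.39 and 5.88 FPKM with NT siRNA, and rose by 0.40 (edgeR adjusted p = 9.78e-11). In the low libraries it had 5.94 FPKM with Satb1 siRNA and 4.78 FPKM with NT siRNA, so it showed no gap between experiments like that of Cd3e. The low experiment gave 15 of the 23 genes an interval below a ratio of 1 and 1 gene an interval above it.

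The chains of the T cell receptor were uneven. The row named TCR-alpha chain had 22 and 17 counts in the high Satb1 siRNA libraries, against 7 and 3 counts in the high NT libraries, and 35 counts in the low Satb1 siRNA library, against 67 in the low NT library. Ptcra, the alpha chain of the receptor of immature T cells, which plasmacytoid dendritic cells also read, had 1.86 and 2.46 FPKM with high Satb1 siRNA, against 1.36 and 1.76 FPKM with high NT siRNA, and 0.03 FPKM with low Satb1 siRNA, against 0.12 FPKM with low NT siRNA. Ptcra rose by 0.85 in the high experiment (edgeR adjusted p = 2.10e-07), and like Cd3d it was higher in the high libraries than in the low ones. Of the other 5 rows Tcrg-C had 61 and 55 counts with high Satb1 siRNA, against 45 and 43 with high NT siRNA, Tcrg and Tcrd had at most 30 in any library, and TCRA and TCR-beta chain were listed at 0 in all 6. Reads of such chains can be split between near-identical rows, so these values are uncertain.

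Of 12 transcription factor genes of the T lineage 5 rose, 3 fell and 4 were not called, with a median of 0.21 on the log2 scale. Tox rose by 0.95 (143 and 129 counts with Satb1 siRNA, 97 and 90 with NT siRNA, edgeR adjusted p = 1.49e-08), and Themis, which encodes a T cell signalling protein rather than a factor, by 0.79 (edgeR adjusted p = 6.55e-04). The factors with most counts fell, Zbtb7b by 0.78 (edgeR adjusted p = 4.44e-36), Runx3 by 0.58 (edgeR adjusted p = 5.84e-17) and Ets1 by 0.33 (edgeR adjusted p = 2.68e-12). Zbtb7b, known for directing CD4 T cells, had 8.99 and 8.98 FPKM with Satb1 siRNA, against 14.8 and 14.95 FPKM with NT siRNA. Among low-experiment ratios 2 of the 12 had an interval above a ratio of 1 and 5 below it.

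Of 27 genes listed for NK and cytotoxic cells 21 were in the table and 15 were tested, with 4 called higher, 4 lower and 7 not called. Of these calls 2 higher (Klra7 and Klrg1) and 2 lower (Klrd1 and Klre1) passed the filter on low counts only with the group where they were high, and the 10 genes past its cutoff in every high library held 2 higher, 2 lower and 6 not called. The chemokine gene Ccl5, which T, NK and myeloid cells make, fell by 2.48 (31 and 34 counts with Satb1 siRNA, 234 and 249 with NT siRNA, edgeR adjusted p = 4.61e-23). Its low libraries had 488 FPKM with Satb1 siRNA and 810 FPKM with NT siRNA, far above the high libraries at 6.78 FPKM or less. Klra7, one of a family of near-identical receptor genes, had 9 and 11 counts with Satb1 siRNA and 1 and 1 with NT siRNA, a ratio of 13.3 with a counting interval of 3.23 to 117. Serpinb9, a granzyme B inhibitor, fell by 0.48 (edgeR adjusted p = 4.60e-21), and the receptor gene S1pr5 was not called (0.15, edgeR adjusted p = 0.0864). In the low NT library 15 of the 21 genes were at least 2-fold higher than in the high NT libraries, as Klrk1 was. A further 3 were at least 2-fold lower. Over all genes these shares were 19.8% and 38.1%. In the low experiment 5 of the 21 genes of the list had an interval above a ratio of 1 (Ncr1, Klrd1, Klre1, S1pr5 and Serpinb9). The interval lay below it for 6 (Gzma, Gzmk, Ccl5, Fasl, Il2rb and Crtam). The receptor gene Klrd1 had 225 counts in the low Satb1 siRNA library and 101 in the low NT library, and the NK receptor gene Ncr1 had 25 and 6. Fasl had 2 and 17 counts in the same libraries, and Gzma had 21 and 37.

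Partners of the receptors moved both ways in the high experiment. Low-experiment intervals lay below a ratio of 1 for 6 of the 12 genes in the table and above it for 0. Of 15 genes listed as partners and ligands of Il7r and Klrk1, 12 were in the table and tested, with 5 higher, 5 lower and 2 not called and a median of -0.15 on the log2 scale. Il2rg, the common gamma chain that pairs with the interleukin 7 receptor, had 13.01 and 13.6 FPKM with Satb1 siRNA, against 20.3 and 19.8 FPKM with NT siRNA, and fell by 0.65 (edgeR adjusted p = 4.66e-25). The receptor kinase gene Jak1 rose by 0.054 (edgeR adjusted p = 4.00e-05). Hcst, the adaptor DAP10 of NKG2D, had 103 and 99 counts with Satb1 siRNA, against 83 and 77 with NT siRNA, and rose by 0.75 (edgeR adjusted p = 2.64e-05). Tyrobp, the adaptor DAP12 that myeloid cells also use, fell by 0.16 (edgeR adjusted p = 1.66e-13). The NKG2D ligand gene Raet1d fell by 1.27 (18 and 22 counts with Satb1 siRNA, 62 and 67 with NT siRNA, edgeR adjusted p = 7.37e-06), though its reads may be split with near-identical ligand genes. Il2rg and Hcst were, like Klrk1, higher in the low libraries, at 237 and 8.72 FPKM with Satb1 siRNA and 262 and 15.2 FPKM with NT siRNA.

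**Figure D5:**
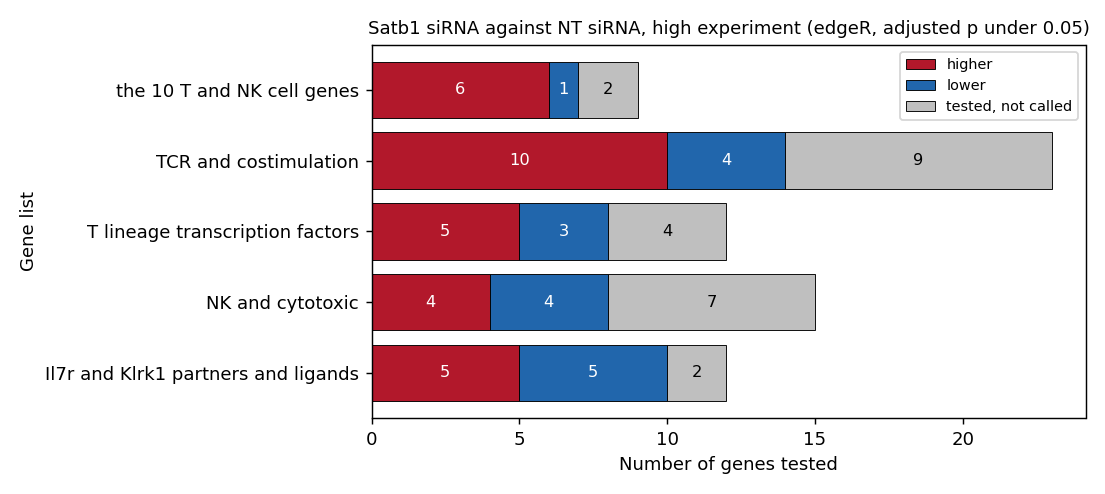
Number of genes called higher, lower or not called in the high Satb1 siRNA libraries against the high NT libraries (edgeR, adjusted p under 0.05) for the 10 genes and 4 lists of related genes. In each list except that of the 10 genes and of the receptor genes, 3 to 5 genes were called lower and 4 or 5 higher. Over all genes tested, 32.8% were called higher and 33.2% lower.

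Markers of other cells that can read some of the 10 genes moved with the same comparisons, and their part in the results was not tested. Over all genes tested in the high experiment, 32.8% were called higher and 33.2% lower. Low intervals lay above a ratio of 1 for 20.9% of all genes with a count there and below it for 27.3%. Of 12 B cell markers 8 of 11 tested were called higher in the high experiment (1 of them, Pax5, past the filter only with the Satb1 siRNA libraries), and their summed level was 79.0 and 78.1 CPM with Satb1 siRNA, against 52.5 and 53.5 CPM with NT siRNA, and 64.3 CPM in the low Satb1 siRNA library, against 48.4 CPM in the low NT library. In the low experiment 1 of these markers had an interval above a ratio of 1 and 4 below it, and the larger sum came with Cd22 (942 counts with Satb1 siRNA, 547 with NT siRNA). Of 9 plasmacytoid dendritic cell markers 4 of 8 tested rose and 1 fell. Their sums were 266 and 288 CPM with Satb1 siRNA, against 248 and 249 CPM with NT siRNA in the high experiment. In the low one they were 754 CPM with Satb1 siRNA and 796 CPM with NT siRNA. The high sums were mostly Tcf4 (10785 and 11228 counts with Satb1 siRNA, 10727 and 11237 with NT siRNA). The low sums were mostly Bst2 (15460 counts with Satb1 siRNA, 18239 with NT siRNA), which fell by 1.08 in the high experiment. Of 9 mast cell and basophil markers 2 were tested, Kit rose and Cma1 was called lower but passed the filter only through the NT libraries, and the sums, mostly Kit, were 46.4 and 46.1 CPM with Satb1 siRNA, against 30.5 and 29.5 CPM with NT siRNA. The low libraries had 43.6 CPM of them with Satb1 siRNA, against 16.4 CPM with NT siRNA. Within this list Mcpt8 and Cpa3 had at most 5 counts in every high library, Ms4a2 had 7 to 10 and Gata2 4 to 9. Cma1 had 2 and 4 counts with high Satb1 siRNA, against 20 and 23 with high NT siRNA. Of 12 mesothelial and fibroblast markers 9 of 11 tested rose and none fell, with sums of 1214 and 1203 CPM with Satb1 siRNA, against 995 CPM in each NT library, and 628 CPM with Satb1 siRNA, against 149.5 CPM with NT siRNA in the low experiment. Low intervals lay above a ratio of 1 for 9 of these 12 markers and below it for 0. Of the genes in that list typical of fibroblasts, Col1a1 had 15 to 30 counts in each library, while Dcn had 780 to 15828 counts. Lum had 0 to 13 counts, Pdgfrb 7 to 39, Col3a1 49 to 160 and Pdgfra 55 to 229. No marker in these lists was at 0 in all 6 libraries.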

How the data were processed

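RNA-seq was measured in 6 libraries in 4 groups, per the labels. Libraries were made from total RNA with a stranded kit, per the labels' protocols. RSEM 1.2.12, DESeq2 and build mm9 are named in the submitters' processing notes; no aligner, filter or use of strand is stated in the labels. The authors deposited FPKM values and counts per gene in 1 table, per the file headers. The deposited counts are taken for RSEM's estimated counts; all were whole, so rounding changed nothing. Every row has a gene symbol.

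Counts were tested on the whole table with edgeR 4.0.16 in R 4.3.3 (quasi-likelihood, robust, TMM scaling, filterByExpr with its minimum count of 10 and total of 15, Benjamini-Hochberg over all genes, threshold 0.05, two-sided). Low ratios and control ratios used a prior count of 2 on the log2 scale; intervals are exact conditional binomial at 95%. The limit that a count of 0 allows is 3 counts (0.0421 to 0.122 CPM), and this limit, like the intervals, covers counting error alone. Fits were tested on simulated data. DESeq2 1.42.0, other scalings, no filter, a replicate block and left-out libraries were alternatives. The near-identical repeats entered these fits as 2 libraries per high group, and summing them was an alternative. Replicate numbers did not pair libraries (correlation of deviations -0.041 over 20242 genes).

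Members and lists were chosen with earlier results of these data known. Of 144 list entries 131 matched, 1 by an older symbol; the rest were not analysed here. Beside the 10 genes and Satb1, the rule names from each of the 4 lists of related genes the 3 with most counts and the 2 called genes with the largest change. Cd247, Klrd1, Klre1, Klrg1, Ncr1, Gzma, Gzmk, Fasl, Il2rb, Crtam and the receptor chain rows were chosen after their values were seen. So were the named markers of classical dendritic cells, Cd22, Pax5, Tcf4, Bst2, Cma1, Mcpt8, Cpa3, Ms4a2, Gata2, Kit, Col1a1, Col3a1, Lum, Pdgfra, Pdgfrb and Dcn.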

Additional observations from a re-analysis of the deposited data

Results flagged for a closer look

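For 6 genes the ratio of Satb1 siRNA to NT siRNA libraries differed between the high and the low experiment in the test of the difference itself (high minus low on the log2 scale, edgeR over 4 group means of 6 libraries). The values were 1.49 for Cd3e, 3.31 for Cd3g, -1.43 for Il7r, 2.56 for Thy1, 1.16 for Lck and 0.544 for Klrk1. Those of Cd3e and Thy1 rest on few counts in the high experiment, as given above. The test rests on the spread between near-identical repeats of the high experiment, with 1 library in each low group, so it compares sequenced libraries and does not show that the effect of the siRNA differs. No group had enough libraries to look for a library far from the others.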

How the results depend on the processing

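In the high experiment the number of genes called ran from 10021 to 14391 over the alternatives tried, beside 13367 as reported, except that summing the repeats with the experiment as a term left 6 genes in all and 0 of the 10 genes. In that fit Cd3e and Cd3g turned to -0.16 and -0.24 on the log2 scale, as it averages over both experiments. Of the 10 genes 7 were called as reported and 6 to 8 with other scaling, no filter, DESeq2, or 4 group means. With the replicate block 7 of the 10 genes and 13248 genes were called, so the block changed no count by much, and the numbers do not pair the libraries. Leaving out each replicate gave 5 to 9 of the 10 genes and 11942 to 12092 genes. In the low experiment the 4 intervals that excluded 1 were all lower after TMM scaling, and with library size alone 3 were higher and 1 lower, with Klrk1 turned to 0.11 on the log2 scale. The prior count does not enter these intervals. The difference between experiments was called for 5 to 7 of the 10 genes with a replicate left out and for 3 in DESeq2; the cause was not tested. For the control libraries 9 of the 10 genes differed at least 2-fold under each setting tried, and those settings were chosen after seeing the data. Genes with under 30 counts per library (Cd3e, Thy1 and Gzmb in the high experiment) are limited by depth. The same limit holds for Cd3g in the high NT libraries (27 and 27 counts) and the low Satb1 siRNA library (20 counts). It also holds for Eomes in the low libraries (24 counts with Satb1 siRNA, 23 with NT siRNA).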
